A study of Mus musculus with 10 samples.

Results

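The autophagy machinery is described here as 34 genes, ordered by the step of autophagosome formation at which their products act. The genes were listed by name for their role in autophagy, with earlier results of these data known. The list of genes uses no measured value, while the choice among a gene's probe sets uses their brightness in these arrays. Probe sets were assigned to a gene where the array's annotation gave that gene's symbol and no other, and the brightest probe set by its mean over the 10 arrays stood for the gene. By this rule 33 of the 34 genes had a probe set, out of 18193 genes with one on the array, and all 33 were bright enough to be tested. The receptor gene Optn had no such probe set and was not analysed here.

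Total RNA was measured in BMEL cells, a bipotential line from mouse embryonic liver whose cells can turn towards hepatocytes or bile duct cells. One group of 5 arrays came from cells transfected, with Oligofectamine, with a locked nucleic acid oligonucleotide directed against miR-30a, called antisense below. The other 5 arrays came from cells given a scrambled oligonucleotide by the same route, called scrambled below. Cells of both groups had thus been exposed to a transfected oligonucleotide, and no untransfected cells were analysed here. The sources used here do not state the oligonucleotide sequences, their doses or the time of harvest, and the level of miR-30a itself was not analysed here. Nothing in the labels tells separate cultures from repeat preparations, so p-values cover only the spread between these arrays, and that spread may be technical.

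In autophagy a double membrane closes around cytoplasm and delivers it to the lysosome. The ULK1 kinase complex starts the process, and vesicles carrying the scramblase ATG9 bring the first membrane. The class III phosphatidylinositol 3-kinase complex around Beclin 1 then marks the membrane with a phosphoinositide that WIPI proteins bind. A pair of ubiquitin-like conjugation systems attach LC3 and GABARAP proteins to the growing membrane, where cargo receptors such as p62 dock. Becn1, the gene of Beclin 1, is a well-known target of miR-30a in human cells, and Atg5 and Atg12 have been reported as targets of the miR-30 family. In liver, autophagy turns over organelles, lipid droplets and protein aggregates.

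Mature sequences of miR-30a, miR-30c and miR-30e are shown because the seed, bases 2 to 8 in capitals, decides which transcripts a family member can pair with. They come from RefSeq on the GRCm38.p6 build. The family members miR-30b and miR-30d were not used here. The miR-30a-3p strand, from the same hairpin on chromosome 1, carries another seed. All are written from 5′ to 3′.
miR-30a-5p: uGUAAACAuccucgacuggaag
miR-30c-5p: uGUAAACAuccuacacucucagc
miR-30e-5p: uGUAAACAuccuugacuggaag
miR-30a-3p: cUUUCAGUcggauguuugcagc
The first 3 sequences share the seed GUAAACA and differ downstream of it.

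Values are the log2 expression values that the authors deposited, and array medians lay between 5.21 and 5.24. Changes are antisense minus scrambled on this log2 scale, so that 1 unit is a doubling, and levels of different probe sets are not compared with each other. The groups were compared with limma over 12634 genes whose mean lay above 4.56, and p-values were adjusted over all of them by the Benjamini-Hochberg method with a threshold of 0.05. The cells held transcripts of simple epithelium and liver transcription factors. The keratin gene Krt8 averaged 13.8 in antisense and 13.8 in scrambled arrays, and the hepatic factor gene Hnf4a 10.7 in both groups. The hepatocyte marker Alb was near the filter level (4.70 in antisense and 4.73 in scrambled arrays), and the hepatoblast marker Dlk1 lay under it.

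One of the 33 genes passed the test, the ATG9 paralogue gene Atg9b, which rose with the antisense oligonucleotide. This is 1 gene of 33, where 1.53% of all genes tested passed in either direction, 1.16% as higher and 0.372% as lower. The other 32 genes did not pass. Their changes lay between -0.11 (Sqstm1) and 0.17 (Wipi1), and the size of the change was under 0.1 for 27 of them. At an unadjusted p under 0.05 there were 4 of the 33 (Atg9b, Wipi1, Atg4c and Atg12), or 12.1%, against 12.9% of all genes tested. All 4 were higher in antisense arrays, as were 8.41% of all genes at that p, while 4.5% were lower. With the replicate number as a block, the count was again 1 of 33 (Atg9b, higher), beside 3.05% of all genes in either direction, 2% higher and 1.04% lower.

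Taken as a group without a test, the members lay slightly above 0. Of the 33 changes, 26 were positive, or 78.8%, beside 55.1% of all genes tested. Their median change was 0.054, beside 0.0084 over all genes tested. Set against each gene's mean over the 10 arrays, the median member deviated by between -0.011 and 0.044 in the antisense arrays and by between -0.031 and 0.019 in the scrambled arrays. The groups overlapped on this measure: antisense replicates 1 and 2 lay below scrambled replicate 1, while antisense replicates 3, 4 and 5 lay above all 5 scrambled arrays. In these bulk samples a change in transcripts per cell and a change in the share of cells that express a gene cannot be told apart.

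**Figure D1:**
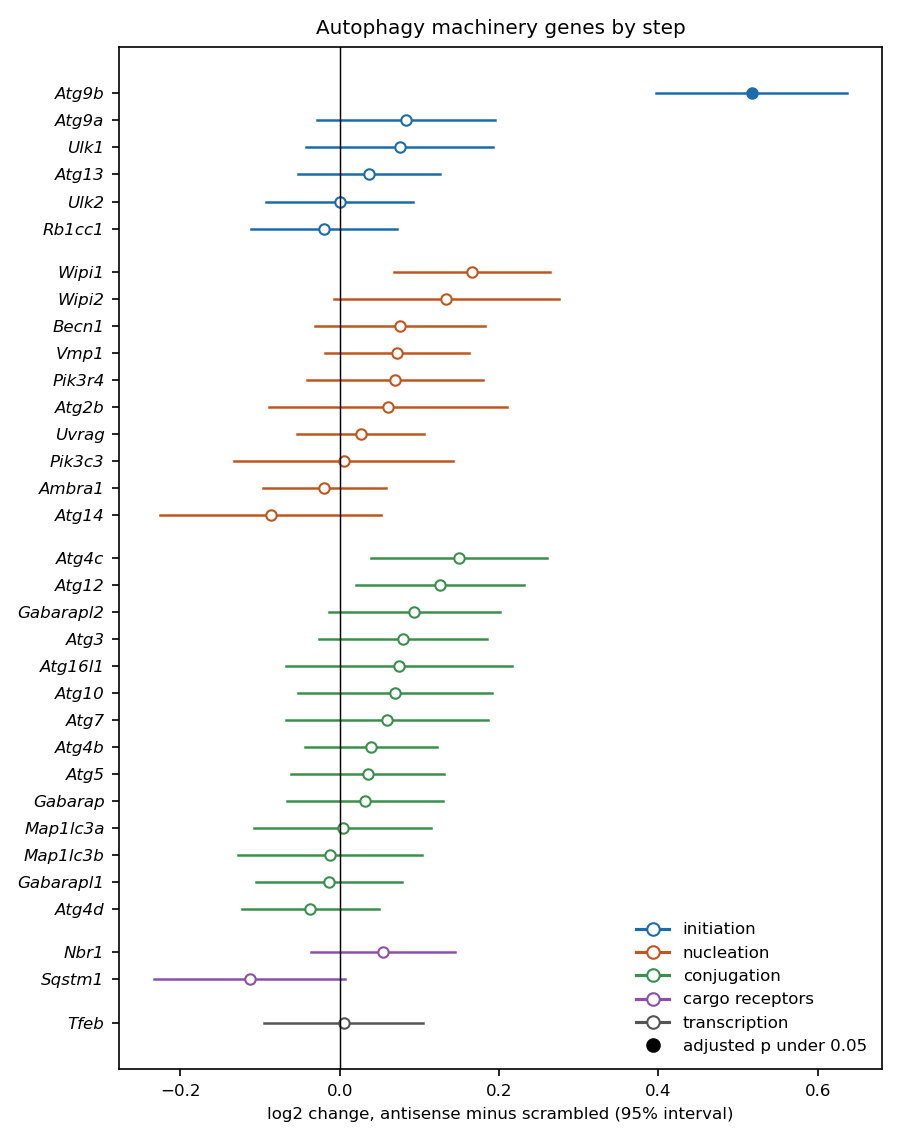
Log2 change (antisense minus scrambled, 5 arrays each) of the 33 measured autophagy machinery genes, grouped by step, with 95% intervals from the limma fit; the filled point passed the adjusted threshold. Atg9b stands at 0.52, and the other 32 genes lie between -0.11 and 0.17.

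**Figure D2:**
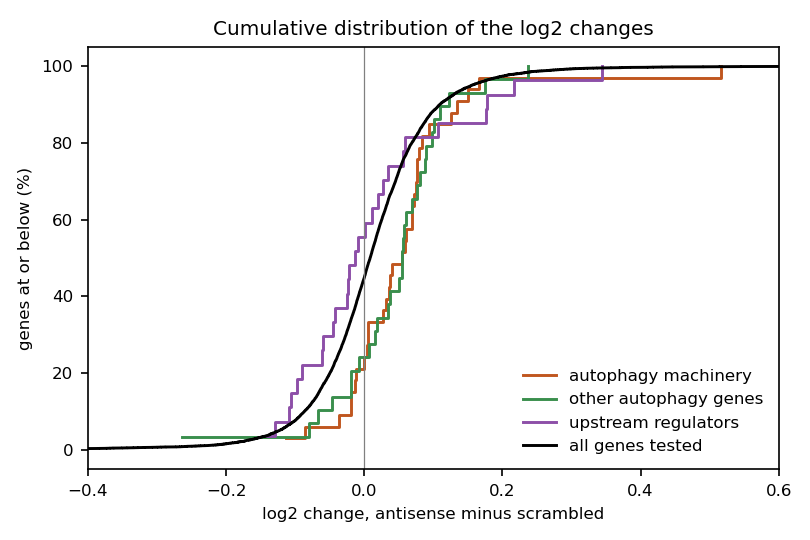
Cumulative share of genes (vertical axis, percent) at or below each log2 change (horizontal axis) for the 33 autophagy machinery genes, 29 other autophagy genes, 27 upstream regulators and all 12634 genes tested; changes beyond the axis range of all genes are not drawn. The curves of both autophagy lists cross 0 further down than that of all genes, since 26 of 33 and 22 of 29 changes were positive.

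The initiation genes comprise the kinase complex and the ATG9 membrane proteins. Atg9b encodes a paralogue of the lipid scramblase ATG9A. Its values were 9.09, 9.15, 9.24, 9.15 and 9.08 in antisense replicates 1 to 5, against 8.73, 8.65, 8.73, 8.48 and 8.54 in scrambled replicates 1 to 5. All 5 antisense arrays lay above all 5 scrambled arrays, and no other member showed a gap between the groups on its brightest probe set. Such a gap was present in 3.92% of all genes tested, with antisense higher in 2.74% and lower in 1.18%. The means were 9.14 ± 0.064 in antisense and 8.62 ± 0.11 in scrambled arrays (SD, n = 5 each), a 1.43-fold difference. The log2 change was 0.52 (SE 0.055, limma adjusted p = 0.000805, or 0.00281 with the replicate block), and Atg9b ranked 7 of 12634 genes by p.

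The rise of Atg9b was seen on 1 of its 2 probe sets. The dimmer probe set had values of 5.36, 5.11, 5.07, 5.30 and 5.31 in antisense arrays and 5.16, 5.05, 5.14, 5.31 and 5.10 in scrambled arrays. These ranges overlapped, and the change was 0.078 (adjusted p = 0.752 over all probe sets, limma). Within each array the brighter minus the dimmer probe set averaged 3.91 ± 0.19 in antisense and 3.47 ± 0.18 in scrambled arrays (SD, n = 5 each). This contrast was chosen after the values had been seen, so it is a description with no test. With the mean of both probe sets in place of the brighter one, Atg9b still passed, with a change of 0.30.

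Atg9a, the gene of the widely expressed ATG9 paralogue, had values of 7.27, 7.28, 7.28, 7.34 and 7.53 in antisense arrays and 7.29, 7.25, 7.21, 7.23 and 7.30 in scrambled arrays. The groups overlapped, and only antisense replicate 5 stood above all scrambled arrays by more than 0.1. The change was 0.084 (SE 0.052, adjusted p = 0.556), with a 95% interval from -0.028 to 0.20. Within arrays, the log2 value of Atg9b minus that of Atg9a averaged 1.80 ± 0.15 in antisense and 1.37 ± 0.12 in scrambled arrays (SD, n = 5 each), a description with no test, since Atg9b was picked for its rise. Without antisense replicate 5 the change of Atg9a was 0.037.

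Atg9b lies on chromosome 5 (24384181 to 24392143, minus strand, GRCm38.p6), and Atg9a on chromosome 1 (75180861 to 75192010, minus strand). In the annotation the span of Atg9b overlaps by 294 bases that of Nos3, the endothelial nitric oxide synthase gene. Nos3 had values between 5.87 and 6.23 in antisense and between 5.91 and 6.18 in scrambled arrays, with a change of 0.049 (SE 0.073, adjusted p = 0.854). The groups overlapped for this neighbour.

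The 250 bases before the annotated starts of the ATG9 paralogue genes are shown because Atg9b is the member that passed the test and its upstream sequence differs in composition from that of its paralogue. Both are RefSeq sequence on GRCm38.p6, on the strand of the gene, with every CG dinucleotide in capitals. Atg9b is at chr5:24392144-24392393 and Atg9a at chr1:75192011-75192260.
Atg9b: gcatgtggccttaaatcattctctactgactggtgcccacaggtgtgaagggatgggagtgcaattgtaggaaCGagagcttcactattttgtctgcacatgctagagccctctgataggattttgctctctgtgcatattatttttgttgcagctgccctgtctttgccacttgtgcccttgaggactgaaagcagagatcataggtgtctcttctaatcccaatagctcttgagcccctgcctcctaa
Atg9a: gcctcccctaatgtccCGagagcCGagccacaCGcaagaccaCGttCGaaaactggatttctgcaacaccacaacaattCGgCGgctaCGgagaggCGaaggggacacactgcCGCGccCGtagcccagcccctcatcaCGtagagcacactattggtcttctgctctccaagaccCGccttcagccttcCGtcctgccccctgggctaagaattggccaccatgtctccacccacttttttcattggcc
The Atg9b stretch held 1 CG dinucleotide and the Atg9a stretch 15. Among the 28 members with a promoter entry Atg9b had the fewest, and the median was 14.5. The next lowest count was 3 (Atg7, whose entry belongs to a start inside the annotated span of the gene). Over 27025 genes the median was 6, and 18.5% of genes had as few as Atg9b or fewer. Rb1cc1, Becn1, Pik3c3, Atg12, Atg16l1 and Map1lc3a had no entry. This is a description of sequence, and nothing measured here ties it to the change.

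The ULK complex genes did not pass the test. Ulk1, the initiating kinase gene, changed by 0.076 (adjusted p = 0.626) and its paralogue Ulk2 by 0.0003. The scaffold subunit genes Atg13 and Rb1cc1, which encodes FIP200, were at 0.037 and -0.020. A second, dimmer Atg13 probe set had values of 6.534, 6.346, 6.374, 6.502 and 6.316 in antisense arrays, against 6.227, 6.282, 6.254, 6.123 and 5.999 in scrambled arrays. Its groups did not overlap, yet its change of 0.24 missed the threshold (adjusted p = 0.125 over all probe sets). The sizes for Atg13 therefore differ by probe set. Over the 66 member probe sets above the filter, 46 had a positive change, beside 55.2% of all probe sets tested, and 1 passed the test (the brighter one of Atg9b), beside 0.686% of all, 0.589% higher and 0.0967% lower. On 5 of the 66 (1 each of Atg9b, Atg13 and Wipi2, and 2 of Wipi1) all antisense arrays lay above all scrambled arrays and on none below, beside 3.23% of all probe sets without overlap, 2.32% higher and 0.906% lower.

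**Figure D3:**
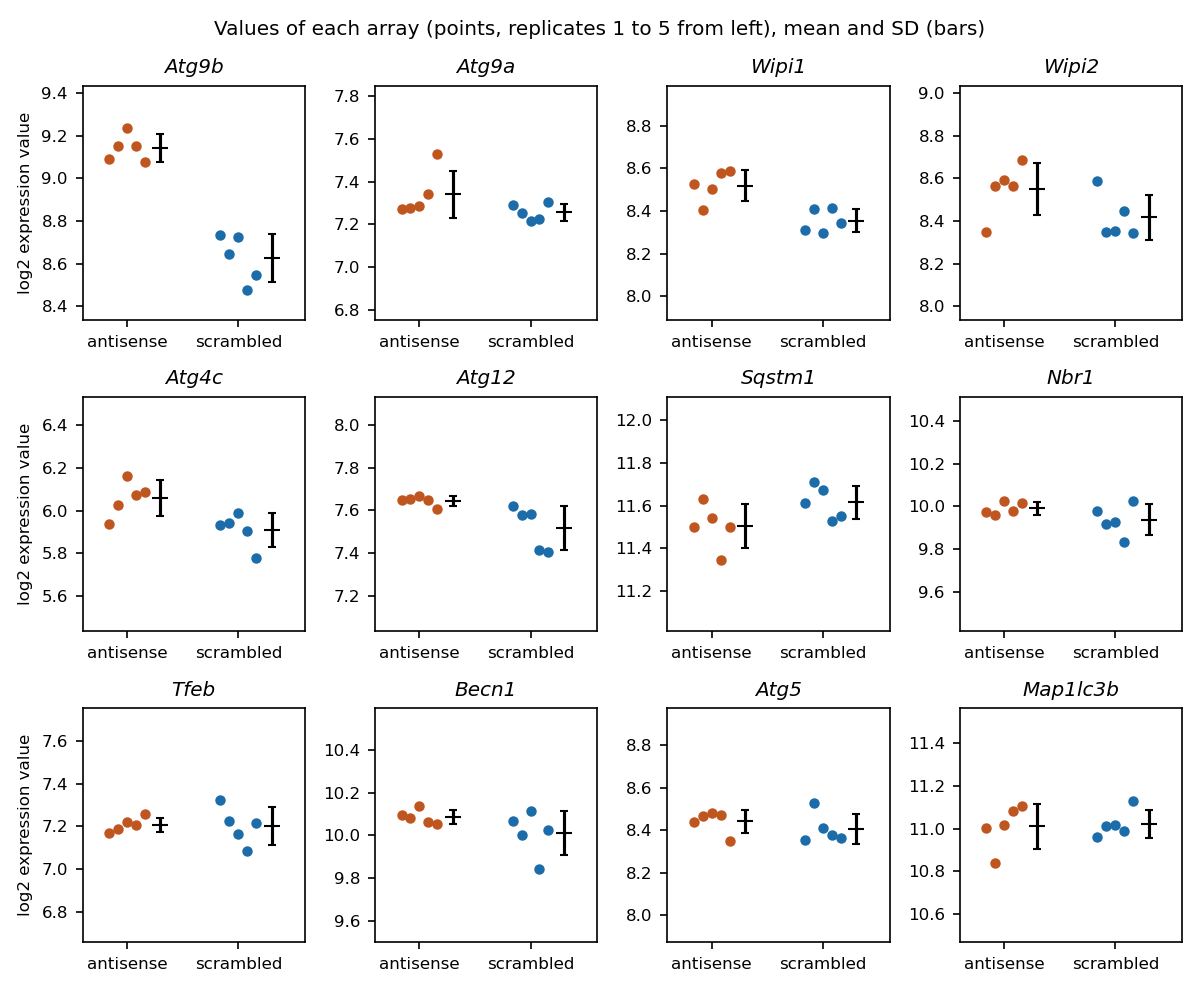
Log2 expression value of each array (points, replicates 1 to 5 from left to right) with the mean and SD of each group (bars) for 12 autophagy machinery genes, antisense left and scrambled right; every panel spans 1.1 log2 units, and axis positions differ between genes. The antisense points lie clear of the scrambled points for Atg9b, and in the other 11 panels the groups overlap.

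The nucleation genes encode the phosphoinositide kinase complex, the proteins that read its product, and membrane suppliers. None of 10 passed the test in limma, 1 had an unadjusted p under 0.05, and 8 changes were positive. Of all genes tested 1.53% passed, 12.9% had such a p and 55.1% were positive. Becn1, on chromosome 11 (101288258 to 101302286, GRCm38.p6), had values of 10.097, 10.081, 10.138, 10.061 and 10.053 in antisense arrays and 10.067, 10.001, 10.115, 9.842 and 10.026 in scrambled arrays. The antisense values fell within a narrow band that overlapped the scrambled ones. The antisense array was higher in all 5 same-numbered pairs, as held for 10.6% of all genes tested. Its change was 0.076 (SE 0.050, adjusted p = 0.585), with a 95% interval from -0.031 to 0.18. Without scrambled replicate 4, the lowest array, the change was 0.034, and the mean of all Becn1 probe sets gave 0.034 too. Of its other probe sets above the filter, the similarly bright one was at 0.062 and the dim ones at -0.042 and 0.019.

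The WIPI genes had the 2 largest changes of this step. Wipi1, which encodes a phosphoinositide-binding protein of early autophagosomes, had values of 8.53, 8.40, 8.50, 8.58 and 8.59 in antisense arrays and 8.31, 8.41, 8.30, 8.41 and 8.34 in scrambled arrays. Antisense replicate 2 lay among the scrambled arrays, and the other 4 antisense arrays lay above all of them. The change was 0.17 (SE 0.045), which missed the threshold (adjusted p = 0.0974, or 0.0922 with the replicate block). Without antisense replicate 2 it passed (change 0.20, adjusted p = 0.0439), but that array was picked for its overlap. With each array left out in turn the adjusted p of Wipi1 ranged from 0.0439 to 0.223.

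Wipi1 had 6 probe sets, the most of any member, and all 6 were higher in antisense arrays, by 0.072 to 0.34. The groups did not overlap on 2 of the 6. On the dimmer of these, values were 5.92, 5.99, 5.94, 5.92 and 5.90 in antisense arrays, against 5.56, 5.80, 5.77, 5.54 and 5.72 in scrambled arrays. None of the 6 passed over all probe sets, and with the replicate block that dimmer one did (change 0.25, adjusted p = 0.0427). The probe sets read the same RNA and are not independent. With the mean of its 6 probe sets as the value of the gene, Wipi1 passed (change 0.19, adjusted p = 0.0414), so its call turns on how probe sets are combined.

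Wipi2, the paralogue that recruits ATG16L1 to the membrane, had values of 8.35, 8.56, 8.59, 8.56 and 8.69 in antisense arrays and 8.59, 8.35, 8.35, 8.45 and 8.35 in scrambled arrays. Antisense replicate 1 and scrambled replicate 1 each lay apart from their groups, in opposite directions. The change was 0.13 (SE 0.065, adjusted p = 0.422). A second probe set of similar brightness had no overlap between the groups and a change of 0.14 (adjusted p = 0.268 over all probe sets), and a dim one was at -0.045. The mean of the 3 gave 0.077.

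The remaining nucleation genes had changes from -0.086 to 0.071, with adjusted p-values of 0.527 and above. The kinase gene Pik3c3 was at 0.0050 and its regulatory subunit gene Pik3r4 at 0.069. Of the Beclin 1 partner genes, Atg14, which targets the complex to autophagosome formation, was at -0.086, Uvrag at 0.027 and Ambra1 at -0.019. The membrane protein gene Vmp1 was at 0.071, and the lipid transfer protein gene Atg2b at 0.061.

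**Figure D4:**
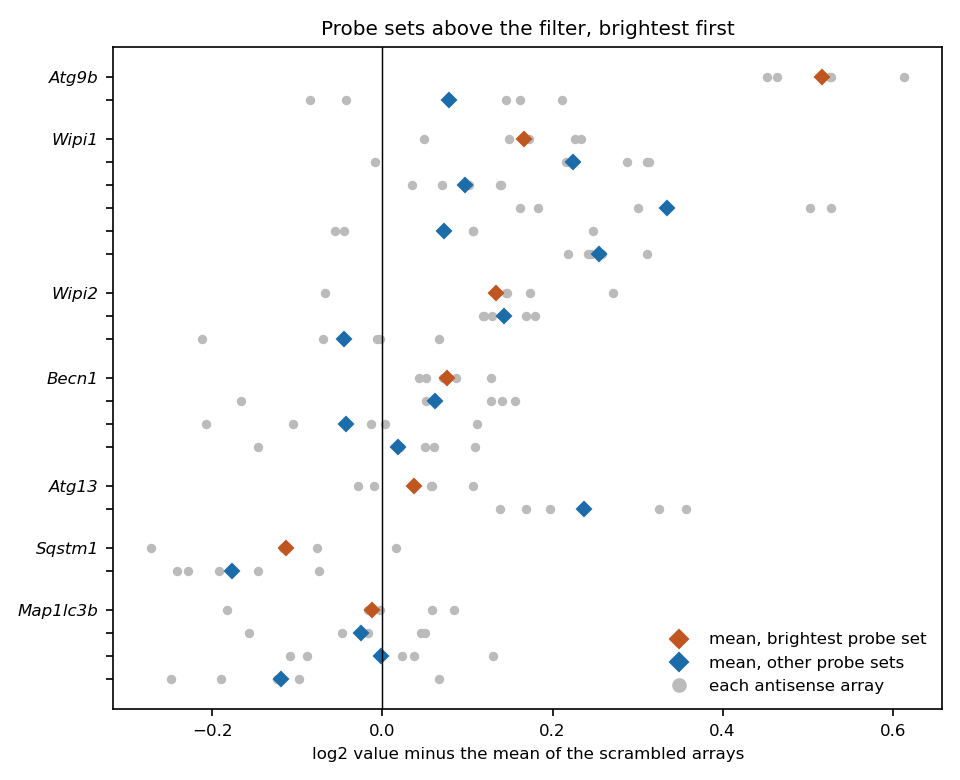
Probe sets above the filter level for 7 autophagy machinery genes, brightest first within a gene; the horizontal axis is the log2 value minus the mean of the 5 scrambled arrays, grey points are the 5 antisense arrays and diamonds their mean (orange for the brightest probe set, blue for the others). All 6 Wipi1 means lie above 0, while the 2 Atg9b means lie at 0.52 and 0.078.

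The conjugation genes encode the enzymes and ubiquitin-like proteins that coat the membrane. None of 14 passed the test in limma, 2 had an unadjusted p under 0.05, and 11 changes were positive. The shares over all genes tested were 1.53%, 12.9% and 55.1%. Atg4c, a protease that processes LC3-type proteins, had values of 5.94, 6.03, 6.16, 6.07 and 6.09 in antisense arrays and 5.93, 5.94, 5.99, 5.90 and 5.78 in scrambled arrays. The groups overlapped through antisense replicate 1 alone. The change was 0.15 (SE 0.051, adjusted p = 0.213), and a second, dimmer probe set was at -0.086, so the sign for Atg4c differs by probe set, and their mean gave 0.032.

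Atg12, the ubiquitin-like protein that is joined to ATG5, had values of 7.65, 7.66, 7.67, 7.65 and 7.61 in antisense arrays and 7.62, 7.58, 7.58, 7.41 and 7.40 in scrambled arrays. Antisense replicate 5 lay just under the highest scrambled array, and scrambled replicates 4 and 5 were lower than the rest. The change was 0.13 (SE 0.049, adjusted p = 0.277), with a second probe set at 0.11 and 0.082 for the mean of all 3. Its acceptor gene Atg5 had values of 8.44, 8.47, 8.48, 8.47 and 8.35 in antisense arrays and 8.36, 8.53, 8.41, 8.38 and 8.36 in scrambled arrays. The Atg5 groups overlapped, and the change was 0.035 (SE 0.044, adjusted p = 0.818), or 0.066 without scrambled replicate 2 and 0.023 without scrambled replicate 1.

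Map1lc3b, which encodes the LC3 protein most used as an autophagosome marker, had values of 11.01, 10.84, 11.02, 11.08 and 11.11 in antisense arrays and 10.96, 11.01, 11.02, 10.99 and 11.13 in scrambled arrays. The highest value was in a scrambled array and the lowest in an antisense array. The change was -0.012 (SE 0.053, adjusted p = 0.961), with a 95% interval from -0.13 to 0.10. With single arrays left out it lay between -0.036 and 0.031, so it has no settled sign. The related genes Map1lc3a (0.0039), Gabarap (0.032), Gabarapl1 (-0.013) and Gabarapl2 (0.094) did not pass either. These values are transcript levels, and the lipid-bound forms of the proteins were not measured.

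The other conjugation genes lay between -0.037 and 0.079. The E1-like enzyme gene Atg7 was at 0.060, with other probe sets above the filter at 0.14 and -0.027. The E2-like enzyme genes Atg3 and Atg10 were at 0.079 and 0.069. Atg16l1, the partner of the ATG12-ATG5 conjugate, was at 0.074, and the protease genes Atg4b and Atg4d were at 0.040 and -0.037.

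The cargo receptor genes with a probe set were Sqstm1 and Nbr1, and neither passed the test in limma. Without the replicate block, neither had an unadjusted p under 0.05 on its brightest probe set. Sqstm1 encodes p62, which binds ubiquitinated cargo and is itself degraded by autophagy. Its values were 11.50, 11.63, 11.54, 11.34 and 11.50 in antisense arrays, against 11.61, 11.71, 11.67, 11.53 and 11.55 in scrambled arrays. The groups overlapped, but the antisense array was lower in all 5 same-numbered pairs, as held for 6.66% of all genes tested. The change was -0.11 (SE 0.055, adjusted p = 0.425, or 0.138 with the replicate block), and a dim second probe set was at -0.18 (adjusted p = 0.269 over all probe sets). The unadjusted limma p was 0.0111 with the block, where 17.2% of all genes tested had one under 0.05. On the second probe set, without the block, it was 0.0134. Without antisense replicate 4 the change was -0.073.

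Nbr1, a receptor that works beside p62, had values of 9.97, 9.96, 10.02, 9.98 and 10.02 in antisense arrays and 9.98, 9.92, 9.93, 9.83 and 10.03 in scrambled arrays. The groups overlapped, and scrambled replicate 4 was the lowest array. The change was 0.054 (SE 0.042, adjusted p = 0.664), or 0.028 without scrambled replicate 4. Across all steps, 7 of the 33 members moved one way in all 5 same-numbered pairs, beside 17.3% of all genes (ties counted as lower). In 6 of them (Atg9b, Becn1, Vmp1, Atg3, Atg4c and Atg12) the antisense array was the higher one, beside 10.6% of all genes, and Sqstm1 was the only member in which it was the lower one.

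Tfeb encodes a transcription factor that switches on lysosomal and autophagy genes. It had values of 7.17, 7.19, 7.22, 7.20 and 7.26 in antisense arrays and 7.32, 7.23, 7.16, 7.08 and 7.22 in scrambled arrays, and the antisense values all fell inside the scrambled range. The change was 0.0049 (SE 0.046, adjusted p = 0.982), with a 95% interval from -0.094 to 0.10, and its sign turned under quantile normalization (-0.013).

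TFEB binds the letters CACGTG within a longer palindrome, and windows around this motif are shown for the members whose promoter entry holds it. The motif reads the same on both strands. Entries span 250 bases before to 50 after a start, and each window below is 30 bases of RefSeq sequence on GRCm38.p6, on the strand of the gene, with the motif in capitals. The windows are at chr16:45158723-45158752 and chr16:45158746-45158775 (Atg3), chr14:47568418-47568447 (Atg14), chr10:44268313-44268342 (Atg5) and chr6:114670952-114670981 (Atg7). The Atg7 entry belongs to a start inside the annotated span of that gene (114643127 to 114860604, plus strand), not at its upstream end, and is counted below all the same.
Atg3 first site: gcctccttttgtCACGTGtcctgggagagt
Atg3 second site: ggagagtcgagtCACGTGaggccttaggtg
Atg14: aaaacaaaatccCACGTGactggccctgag
Atg5: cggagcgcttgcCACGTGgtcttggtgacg
Atg7: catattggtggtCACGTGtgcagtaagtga
The motif stood in 4 of the 28 members with an entry, or 14.3%, against 8.09% of all genes with one. A longer form, GTCACGTG on either strand, contains the shorter motif and stood in 3 of the 28, or 10.7%, against 2.55% of all genes. Atg7, with its start inside the gene, is among these 3. Both forms hold a CG, and the 250 upstream bases held more CG in members (median 14.5) than over all genes (median 6). Whether base composition accounts for these shares was not tested. The full palindrome, known as the CLEAR element, stood in 0 of the 28, against 0.37% of all genes. The changes of these 4 genes were 0.079 (Atg3), -0.086 (Atg14), 0.035 (Atg5) and 0.060 (Atg7), and none passed the test. The Atg9b and Wipi1 entries do not hold CACGTG.

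Other genes of the pathway were read from a list of 31, of which 29 were tested. None passed the test in limma, and 5 had an unadjusted p under 0.05, or 17.2%, beside 12.9% of all genes tested. Their median change was 0.055, and 22 of 29 were positive, beside 0.0084 and 55.1% over all genes tested. Wdr45, a further WIPI family member also called WIPI4, had values of 8.44, 8.30, 8.38, 8.32 and 8.48 in antisense arrays, against 8.22, 8.17, 8.16, 8.29 and 8.21 in scrambled arrays. The groups did not overlap, and the change of 0.17 (SE 0.046) missed the threshold (adjusted p = 0.0829, or 0.0423 with the mean of its 2 probe sets).

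The last WIPI family gene, Wdr45b, was at 0.037 (adjusted p = 0.767). The receptor gene Calcoco1 was at 0.24 (SE 0.079, adjusted p = 0.192) with overlapping groups, and at 0.13 with the mean of its 2 probe sets. Rubcn, whose product Rubicon restrains the Beclin 1 complex, was at 0.11 (SE 0.037, adjusted p = 0.205), and its antisense values of 8.21 to 8.26 lay just above its scrambled values of 8.07 to 8.21. On this list 5 of 5 genes of initiation and lipid transfer had a positive change, 6 of 7 of fusion with lysosomes and 5 of 10 selective receptors. Of all genes tested 55.1% were positive. Changes ran from 0.035 to 0.17 for initiation and lipid transfer and from -0.0078 to 0.12 for fusion. These sublists are short, and no difference between steps is drawn from them.

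Of 27 upstream regulators tested, 1 rose: Trp53inp1, a p53 target whose product binds LC3-type proteins. Of all genes tested 1.53% passed, 1.16% as higher, and 4 of the 27 regulators had an unadjusted p under 0.05, or 14.8%, beside 12.9% of all genes. Its values were 9.998, 9.775, 10.031, 9.905 and 9.999 in antisense arrays, against 9.716, 9.483, 9.564, 9.544 and 9.683 in scrambled arrays, with no overlap. The change was 0.34 (SE 0.059, adjusted p = 0.0134). It missed the threshold when its 2 probe sets were averaged (change 0.14, adjusted p = 0.345). The median change of this list was -0.014, and 12 of 27 were positive.

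Among the regulators of the growth kinase mTORC1, which holds autophagy back, Tsc2 was at 0.18 (SE 0.048, adjusted p = 0.0949). Tsc2 encodes an inhibitor of mTORC1, and antisense replicate 1, at 8.42, was the array that overlapped the scrambled range of 8.35 to 8.44. Without it Tsc2 passed (change 0.22, adjusted p = 0.0213), but that array was picked for its overlap. With each array left out in turn the adjusted p of Tsc2 ranged from 0.0213 to 0.214. Sesn2, a stress-induced inhibitor of mTORC1, was at 0.18 (SE 0.049, adjusted p = 0.106). Its scrambled replicate 1 was at 7.90 against 7.66 to 7.75 in the other scrambled arrays. Without that array, likewise picked for its value, Sesn2 passed (adjusted p = 0.0336). With each array left out in turn its adjusted p ranged from 0.0336 to 0.227. The mTOR gene itself, Mtor, was at -0.0088, and the AMPK catalytic subunit genes Prkaa1 and Prkaa2 were at 0.056 and 0.22, neither past the threshold. Other regulators lay below 0 without passing, among them Deptor (-0.13), Prkab2 (-0.090), Sesn1 (-0.060) and Tsc1 (-0.045). Changes were positive for 5 of 11 genes of mTORC1 and its inputs, 4 of 6 AMPK genes and 3 of 7 p53-linked genes. They were positive for 0 of the 3 transcription factor genes tested. Of all genes tested 55.1% were positive, and the list as a whole shows no common direction.

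Of all genes tested 1.53% passed in limma without the replicate block, and 12.9% had an unadjusted p under 0.05. None of the 5 hepatoblast and none of the 6 epithelial markers tested passed this test, and 1 of each had such a p. These were Ttr, the transthyretin gene, at -1.17 (adjusted p = 0.0574), and Sox9 at 0.17 (adjusted p = 0.0662, or 0.0571 with the block). With the block Ttr passed (adjusted p = 0.000814). In each of the 5 same-numbered pairs its antisense value was lower, as held for 6.71% of all genes tested. Markers of other cell types lay on both sides of the filter level. Among those above it were the macrophage marker Csf1r (6.47 in antisense and 6.41 in scrambled arrays) and the endothelial marker Kdr (6.08 and 6.09). Of 6 blood and macrophage markers 5 had a probe set, Ptprc and Adgre1 lay under the filter level, and 1 of the 3 tested rose: Cd68, a lysosomal glycoprotein gene, by 0.39 (adjusted p = 0.0176). The mean level of these markers lay between 4.79 and 4.88 in antisense arrays and between 4.68 and 4.86 in scrambled arrays. None of the 5 stellate and mesenchymal and none of the 2 endothelial markers tested passed in limma, at an unadjusted p under 0.05 either, and Lrat, Pecam1, Cdh5 and Tek lay under the filter level. The part of other cells, or of the difference in Ttr, in the change of Atg9b was not tested.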

How the data were processed

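The values table holds 45101 probe sets and 10 arrays. Its log2 values were deposited by the authors. The scale was read from the values, which reach 14.2, and no source used here states the background correction, summary or normalization. The values were used as they stand. The labels' titles gave each array's group and replicate number. The platform annotation named 1 gene for 34945 probe sets, and 34741 matched a current RefSeq gene. Array controls (64) and probe sets with several genes (932) were left out. Genes whose mean lay under the 40th percentile of all probe sets (4.56) were not tested.

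Each gene was fitted by group with lmFit and moderated with eBayes (limma 3.58.1, R 4.3.3). Tests were two-sided, and p-values were adjusted by Benjamini-Hochberg over 12634 genes, or over 22747 probe sets where stated. Precision is limited by having 5 arrays a group. The procedure was tested on simulated data. Figures were drawn with matplotlib 3.10.9.

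The members, lists and tests were chosen with earlier results of these data known. Full values are given for members past the threshold with or without the replicate block, for the 2 members of each step with the smallest p, and for Becn1, Atg5, Atg12, Map1lc3b and Sqstm1. Of the other lists, the genes past the threshold and the 3 with the smallest p were named. Wdr45b, Mtor, Prkaa1, Prkaa2, Deptor, Prkab2, Sesn1, Tsc1 and the markers Csf1r and Kdr were named after their values were seen.

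Both groups carry replicate numbers 1 to 5. After subtracting group means, arrays that share a number correlated at 0.172, 0.377, 0.112, 0.152 and 0.334 over the genes tested, against -0.312 to 0.231 for different numbers. On this basis, from the values and not from the labels, the numbers were used as pairs in the replicate block and in the counts of same-numbered pairs. The main fit used no pairs. The correlations of replicates 1, 3 and 4 lay under the highest one for different numbers, so the pairing is not certain.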

Additional observations from a re-analysis of the deposited data

Results flagged for a closer look

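In 78 groups of 5 arrays, taken from the 33 members and 6 other named genes, 3 had 1 array far from the rest by Dixon's criterion, which chance alone would give in about 1 group in 20. Atg9a was at 7.529 in antisense replicate 5, while the next highest antisense array was at 7.343 and the lowest at 7.27. Without that array the change of Atg9a was 0.037, against 0.084 with it. Atg16l1 was at 6.423 in scrambled replicate 5, while the other scrambled arrays lay between 6.642 and 6.711. Gabarap was at 11.84 in scrambled replicate 5, while the other scrambled arrays lay between 11.69 and 11.73. None of these 3 genes passed the test with any single array left out.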

How the results depend on the processing

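Atg9b passed in all 18 alternatives (change 0.30 to 0.54, adjusted p up to 0.0058). Each of them uses its brighter probe set, alone or averaged with the dimmer one, so they cannot show whether the call holds without it. The dimmer probe set was at 0.078 (adjusted p = 0.752 over all probe sets, limma). The count of members past the threshold was 1 in each alternative except with the mean of a gene's probe sets, where it was 2, and with arrays left out it ranged from 1 to 2. Wipi1 was the second member both with that mean and without antisense replicate 2. With the mean of probe sets, 1 other autophagy gene (Wdr45) passed, against 0, and 0 upstream regulators passed, against 1. Upstream regulators ranged from 1 to 2 and other autophagy genes stayed at 0 with arrays left out. Over all genes the count of 193 became 385 with the replicate block and 303 with a trended, robust variance, and ranged from 92 to 202 with arrays left out. It was 95, 92 and 123 without antisense replicates 3, 4 and 5, and 101 without scrambled replicate 3. The replicate block changed no call of a member on its brightest probe set, and among the marker genes it turned that of Ttr. The median change of the members, examined under these settings after the data had been seen, ranged from 0.032 to 0.059. Atg4c fell under the filter at the 60th percentile and gave no value there. The median change of all genes was 0.0084 as deposited, 0.0013 with quantile normalization and 0.0056 with median centring. Of the 33 members, 26 were positive in the main fit. This count was 23 with quantile normalization (member median 0.042), 25 with median centring and 27 with the mean of probe sets.

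The 95% intervals of the 32 members that did not pass reach from -0.23 to 0.28, and 29 of them hold 0, so small changes are not shown to be absent. The levels of miR-30a and of the proteins were not measured, and whether replicates are separate cultures is not stated in the labels.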
